A study of Arabidopsis thaliana with 6 samples.

Results

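The 8 actin genes described here are the 5 of the reproductive class (ACT1, ACT3, ACT4, ACT11 and ACT12) and the 3 of the vegetative class (ACT2, ACT7 and ACT8). They were taken by gene identifier from the 27655 genes of the deposited table and not by a measured value, although earlier results of these data were known. Transcripts were sequenced from the vegetative nucleus (VN) and the sperm cells (SCs) of mature Arabidopsis pollen, in 3 biological replicates of each. All plants were of wild-type background and carried a pair of reporters, MGH3p::MGH3-GFP, which marks SCs, and ACT11p::H2B-mRFP, which marks the VN. Days with 16 h of light, given after 8 weeks of days with 8 h, brought the plants to flower, and SCs and VN were sorted by fluorescence from cracked pollen. Whole cells gave the SC libraries but isolated nuclei the VN libraries, so cell type and cell compartment cannot be told apart in any difference given below.

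Actin monomers assemble into the filaments along which vesicles and organelles are carried through the vegetative cell to the tip of the growing pollen tube. Plants have several actin genes that encode very similar proteins and differ mainly in where they are transcribed. In Arabidopsis, the reproductive class is known for transcription in pollen and other reproductive tissue, and the vegetative class for transcription in leaves, stems and roots. In these libraries, actin transcripts were far more abundant in VN than in SCs, and SCs and VN differed in which actin gene led. ACT12 and ACT4 led in VN, whereas ACT3 alone made up between 64.5% and 69.3% of the actin transcripts in SCs. In these shares ACT7 counts as 0, as it is listed.

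The values are TPM, in which each gene's transcripts are divided by their length and scaled so that a library sums to 1000000. TPM is therefore a share, and a few very abundant genes lower all others in the same library. It keeps no record of read number, so the depth behind each library's values cannot be read from the table and counting error cannot be stated. Between 12418 and 15112 genes were above 0 in SC libraries and between 10202 and 15289 in VN libraries. As a check of the labels, 10 sperm cell marker genes summed to 37751 to 44468 TPM in SCs and to 480 to 1334 TPM in VN, highest in VN replicate 3. MGH3 (5095 TPM on average in SCs) is among them and is not independent of the sort, since it is the gene of the SC reporter. DAZ3 and TIP5;1 made up most of the SC sum, with means of 16440 and 16462 TPM. The 10 vegetative cell markers summed to 13433 to 14574 TPM in VN and to 298 to 421 TPM in SCs. Of 8 green tissue markers, 1 averaged at least 1 TPM in VN, where their sum was 3.11 to 8.74 TPM. In SCs 2 of the 8 did so, with a sum of 344 to 519 TPM, nearly all of it from RBCS3B (407 TPM on average), and LHCB1.3, RCA and PSAD1 were listed at 0. The 5 tapetum and anther wall markers summed to at most 1.68 TPM in any library, with LTP12 and ATA7 listed at 0 in all 6. In such bulk libraries, fewer cells of a type and less RNA per cell cannot be told apart.

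Because the actin genes are paralogs, the sequence that separates them decides how well reads can be assigned. The coding sequences of all 8 genes are 1134 bp long in the RefSeq annotation of TAIR10.1, and 385 of these positions vary among them. The most similar pairs were ACT2 with ACT8 (91.0% of coding positions identical), ACT1 with ACT3 (90.5%) and ACT4 with ACT12 (87.9%). Of all 31-base words in the annotated transcripts, 5.49% in ACT1, 4.12% in ACT4 and between 1.12% and 2.96% in the other 6 genes also occur in another of the 8. The following 60-base stretch covers coding positions 655 to 714, inside a single exon. It is shown because no stretch compared had more variable positions than its 28. Those compared were of this length, began with a codon and lay inside a single exon in all 8 genes. Capitals mark bases that differ from ACT3, the leading gene of SCs, and the sequences lie on the plus strand at chr3:19916799-19916858 for ACT3, chr2:15780651-15780710 for ACT1, chr3:17129402-17129461 for ACT12, chr3:3859037-3859096 for ACT11 and chr3:6476267-6476326 for ACT2.
ACT3: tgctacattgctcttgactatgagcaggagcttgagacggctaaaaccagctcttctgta
ACT1: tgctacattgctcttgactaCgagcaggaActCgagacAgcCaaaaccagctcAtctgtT
ACT12: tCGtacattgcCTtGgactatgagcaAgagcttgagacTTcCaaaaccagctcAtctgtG
ACT11: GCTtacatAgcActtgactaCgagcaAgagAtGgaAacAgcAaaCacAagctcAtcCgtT
ACT2: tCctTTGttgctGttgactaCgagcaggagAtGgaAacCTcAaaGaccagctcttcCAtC
In this stretch, ACT1 differs from ACT3 at 7 positions, ACT12 at 11, ACT2 at 16 and ACT11 at 17. ACT1 and ACT3 have 53 words of 31 bases in common, and ACT3 has 5 in common with ACT4 and 0 with the others. The authors assigned reads to transcripts of their own assembly, so these word counts describe the annotation and not their index.

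To ask which actin genes differ between the cell types, log2(TPM + 1) was fitted with limma for the 10955 genes that reached 1 TPM in 2 or more of the 6 libraries. Every log2 difference below is the SC mean minus the VN mean of these log2 values, a scale on which genes of low TPM appear to change less than they do. Calls required an adjusted p (Benjamini-Hochberg) under 0.01 together with a log2 difference over 1 in size. Of the 8 actin genes 7 passed the filter and ACT7 did not. ACT2 passed through its VN libraries only, so it had to differ. The 7 were all called, all higher in VN, where 64.9% of all tested genes were called in either direction and 35.6% were called higher in VN. The 3 VN libraries also lay above the 3 SC libraries for each of the 7, as for 41.8% of all tested genes. The median log2 difference of the 7 was -4.54, beside -0.55 over all tested genes. ACT2 is counted in this median, which is given as a description only. The tested actin genes other than ACT2 ranged from -6.47 (ACT12) to -1.25 (ACT3).

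**Figure D1:**
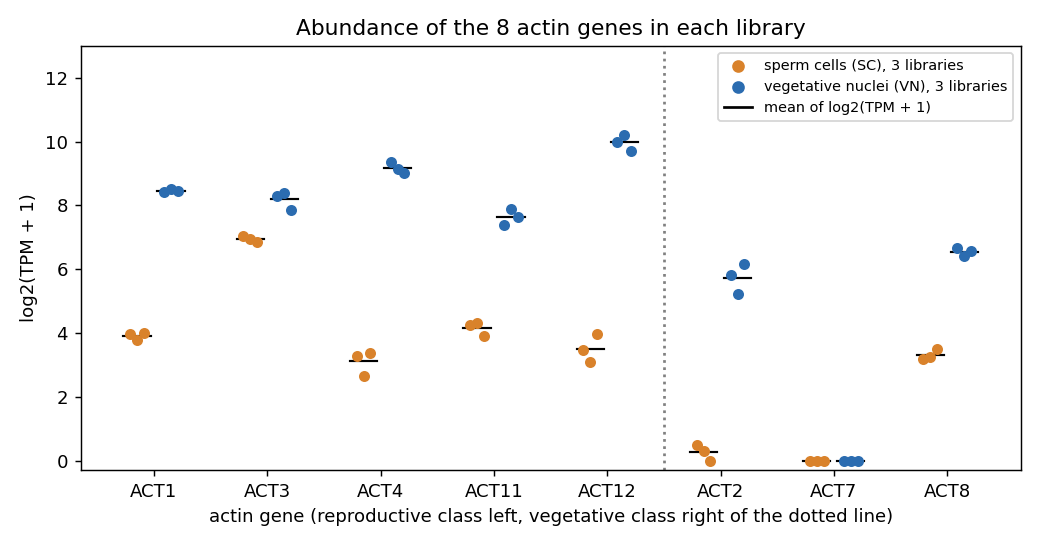
Abundance of the 8 actin genes as log2(TPM + 1) in the 3 SC libraries (orange) and the 3 VN libraries (blue), with the mean as a black bar. VN points lie above SC points for 7 genes, the gap is smallest for ACT3, and ACT7 is at 0 in all 6 libraries.

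The pollen actins ACT12 and ACT4, a pair of close paralogs, had the highest levels in VN and among the largest differences. ACT12 (AT3G46520, chromosome 3, 17128211 to 17131466, plus strand, coding sequence in 4 exons) was at 1019, 1193 and 842 TPM in VN replicates 1 to 3. Its levels in SC replicates 1 to 3 were 9.99, 7.55 and 14.6 TPM. All VN values were thus far above all SC values, with a 95-fold higher mean in VN (log2 difference -6.47, standard error 0.27, limma adjusted p = 3.54e-07). ACT4 (AT5G59370, chromosome 5, 23949661 to 23951837, plus strand, 4 coding exons) was at 659, 564 and 521 TPM in VN and at 8.80, 5.32 and 9.49 TPM in SCs. The mean was 73.9-fold higher in VN (log2 difference -6.06, standard error 0.25, limma adjusted p = 3.58e-07). There was 1.14 to 1.54 times as much ACT12 as ACT4 in SCs and 1.55 to 2.11 times in VN, ranges that only just do not overlap (exact permutation test, two-sided, p = 0.1). Summed over both genes, the log2 difference was -6.39 (limma adjusted p = 3.15e-07). ACT12 shares 1167 bp with RPP13 (AT3G46530), a disease resistance gene on the opposite strand, and the strand of reads is not recorded by Smart-seq2. RPP13 was at 31.7, 30.5 and 21.9 TPM in VN and at or under 0.0679 TPM in SCs; the part of this overlap in either value was not tested.

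ACT1 and ACT3, also actins of pollen, were close to each other in VN and far apart in SCs. ACT1 (AT2G37620, chromosome 2, 15778941 to 15781561, plus strand, 4 coding exons) was at 339.6, 368 and 346 TPM in VN and at 14.5, 12.9 and 15.1 TPM in SCs. Relative to the mean, its replicates were the most even of the family in VN (351 ± 14.8 TPM, SD, n = 3). The mean of ACT1 was 24.7-fold higher in VN (log2 difference -4.54, standard error 0.18, limma adjusted p = 3.48e-07). ACT3 (AT3G53750, chromosome 3, 19915257 to 19917775, plus strand, 4 coding exons) reached 316, 337 and 233 TPM in VN. Its SC levels were 129.7, 121 and 116 TPM, and no other actin gene was above 20 TPM there. The VN mean was 2.41-fold higher (log2 difference -1.25, standard error 0.19, 95% interval -1.70 to -0.80, limma adjusted p = 0.000492), a call that 3 other scalings of the libraries removed, as given further on. The ratio of ACT3 to ACT1 was 8.94, 9.39 and 7.64 in SCs and 0.930, 0.915 and 0.673 in VN, so the ranges were separate (p = 0.1, the smallest that a two-sided exact permutation test of 3 libraries against 3 allows). This ratio is taken within each library and does not move when all TPM of that library are multiplied by a common factor. Summed over both genes, the log2 difference was -2.23 (limma adjusted p = 4.54e-06). ACT1 shares 330 bp with AS1 (AT2G37630) on the opposite strand, which was at most 1.23 TPM in any library.

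ACT11 (AT3G12110, chromosome 3, 3857780 to 3860089, plus strand, 4 coding exons), known for transcription in pollen and ovules, has a special place because its promoter drives the reporter by which VN were sorted. Its difference is therefore not independent of the sort, and any reads of the reporter that carry ACT11 sequence cannot be told apart from those of the gene. It was at 166, 236 and 196 TPM in VN and at 18.2, 19.1 and 14.1 TPM in SCs. The VN mean was 11.6-fold that of SCs, with no overlap (log2 difference -3.46, standard error 0.23, limma adjusted p = 3.39e-06). It ranked after ACT12, ACT4, ACT1 and ACT3 in VN but directly after ACT3 in SCs, with a range that overlaps those of lower genes. Its share of the actin transcripts, 7.88% to 10.9% in SCs and 6.26% to 8.53% in VN, did not separate SCs from VN (p = 0.3, two-sided exact permutation test).

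In the vegetative class, the 3 genes behaved in 3 ways. ACT8 (AT1G49240, chromosome 1, 18215800 to 18218339, plus strand, 4 coding exons) was at 100.5, 85.2 and 93.9 TPM in VN and at 8.19, 8.44 and 10.2 TPM in SCs. The VN mean was 10.4-fold higher (log2 difference -3.25, standard error 0.22, limma adjusted p = 3.75e-06). ACT2 (AT3G18780, chromosome 3, 6474710 to 6477204, plus strand, 3 coding exons), known for its part in root hair growth and the closest paralog of ACT8, was at 55.2, 36.3 and 70.8 TPM in VN. Only 0.417 and 0.231 TPM were found in SC replicates 1 and 2 and a listed 0 in replicate 3 (log2 difference -5.47, standard error 0.33). Because ACT2 passed the filter through its VN libraries only, it had to differ, and its values are given as a description. Where ACT8 kept a level near that of ACT4 in SCs, ACT2 was thus close to 0. Summed over both genes, the log2 difference was -3.86 (limma adjusted p = 1.71e-06).

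ACT7 (AT5G09810, chromosome 5, 3052062 to 3054691, plus strand, 4 coding exons), a hormone-responsive actin of young vegetative tissue, was listed at 0 TPM in all 6 libraries. So were 4937 of the 27655 genes (17.9%). Of 436 genes with the word ribosomal in their description, 52 were also listed at 0 in every library, and between 152 and 298 in a single one. Whether an entry of 0 means absence of the transcript cannot be told from these values and was not tested. ACT7 shares few words with the other actins (1.12% of its 31-base words), and no gene overlaps it in the annotation.

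Ordered by level, VN had ACT12, ACT4, ACT1, ACT3, ACT11, ACT8 and ACT2, from a mean of 1018 to 54.1 TPM. Each gene lay above the next in all 3 VN libraries, and only ACT3 and ACT11 had overlapping ranges. In SCs the order was ACT3, ACT11, ACT1, ACT12, ACT8, ACT4 and ACT2. ACT3 stood apart from ACT11 (122 ± 7.04 against 17.2 ± 2.66 TPM, SD, n = 3 each). Of the 5 genes from ACT11 to ACT4, at means from 17.2 to 7.87 TPM, each overlapped in range with the next, although ACT11 and ACT1 lay wholly above ACT8 and ACT4, and ACT1 was above ACT12 in all 3 libraries. ACT4 lay above ACT2 in all 3 SC libraries with separate ranges. Among all genes of the table, ACT12 ranked 181st by mean TPM in VN and 3226th in SCs, whereas ACT3 ranked 529th in VN and 631st in SCs.

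The 8 genes together reached 2655, 2819 and 2304 TPM in VN and 189.9, 175 and 179 TPM in SCs, which is 14.3-fold more in VN by the means. The ranges were far apart (exact permutation test, two-sided, p = 0.1, the smallest that 3 against 3 allow). Without ACT11, the sorting gene, the fold was 14.6, and with the 10 most abundant genes of any library removed and the rest rescaled it was 8.18. The make-up of this sum differed as well. ACT3 made up 67.4 ± 2.53% of it in SCs and 11.3 ± 1.04% in VN, whereas ACT12 made up 5.91 ± 1.99% of the SC sum and 39.1 ± 2.95% of the VN sum (SD over 3 libraries). ACT4 made up 3.05% to 5.29% in SCs and 20.015% to 24.8% in VN, and ACT1 7.39% to 8.44% and 12.8% to 15.02%. The ranges of ACT1, ACT2, ACT3, ACT4, ACT8 and ACT12 were separate (each of these 6 at p = 0.1 by a two-sided exact permutation test), while that of ACT11 was not. Shares within a library sum to 100, so a rise of ACT3 lowers the rest. ACT7 enters each sum at its listed 0.

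**Figure D2:**
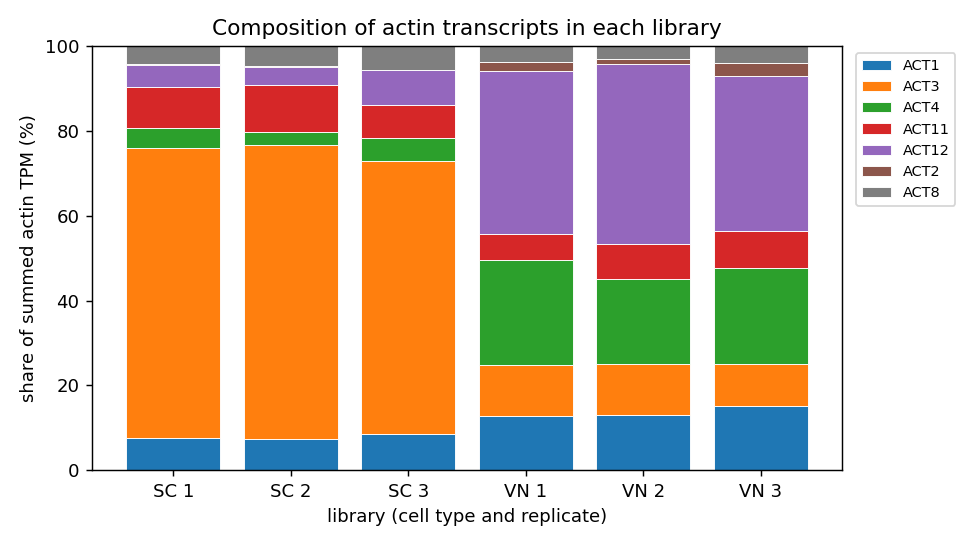
Share of each actin gene in the summed actin TPM of a library, in percent, for 3 SC and 3 VN libraries; ACT7 adds nothing and is not drawn. ACT3 takes 64.5% to 69.3% in SCs, while ACT12 and ACT4 take the largest shares in VN.

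With ACT7 counted at its listed 0, the vegetative class was a small part of the family in either cell type. Whether that 0 means absence was not tested, so all shares within the family rest on it. ACT2, ACT7 and ACT8 together made up 4.53%, 4.96% and 5.70% of the summed actin TPM in SCs and 5.86%, 4.31% and 7.15% in VN. These ranges overlapped, and the difference of -0.71 percentage points was not past the spread between libraries (exact permutation test, two-sided, p = 0.6). Without VN replicate 2 the difference was -1.44 points and the ranges no longer overlapped (exact permutation p = 0.2, the smallest possible), and without VN replicate 3 it was -0.02. Within the class, ACT8 made up nearly the whole in SCs and ACT2 a larger part in VN, where ACT8 was 1.32 to 2.35 times as abundant as ACT2.

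Vegetative cell transcripts were present in the SC libraries at a low level, so each actin gene was set beside them. The 10 vegetative cell markers were in SCs at 0.158% to 4.0% of their VN mean, with a median of 1.93%. Over the 200 most abundant genes of VN, the median was 2.96%, with quartiles of 2.03% and 5.0%. These 200 were chosen by their VN mean (919 TPM or more), which is also the divisor of the percent, so low percents were favoured. Of the actin genes only ACT12 is among them, so the others are set beside genes of higher VN level. ACT2 (0.399%), ACT12 (1.05%) and ACT4 (1.35%) lay within the range of the markers, and ACT1 (4.04%) lay just above the highest marker. ACT11 (8.60%) and ACT8 (9.60%) lay further above every marker and above 187 and 189 of the 200 genes. ACT3, at 41.4%, lay above 193 of them. The divisor of each percent comes from isolated nuclei and not from whole vegetative cells, so the percents also depend on the compartment sampled. The part of vegetative cell RNA in the SC levels of these genes was not tested.

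**Figure D3:**
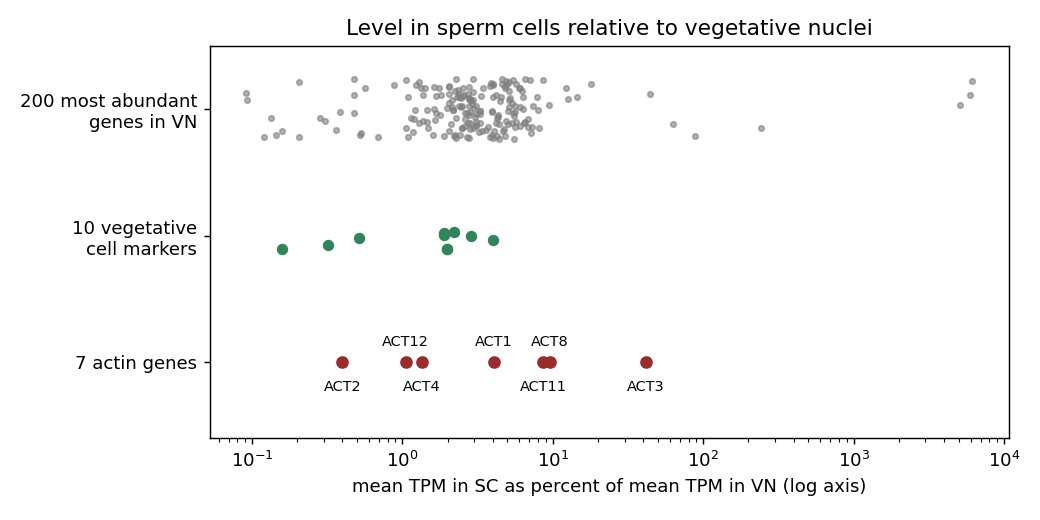
Mean TPM in SCs as a percent of the mean in VN (log axis) for 7 actin genes, 10 vegetative cell markers and the 200 most abundant genes of VN; vertical scatter within a row carries no value. ACT2, ACT12 and ACT4 fall within the markers, and ACT8, ACT11 and ACT3 to their right.

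Since TPM is a share, the differences were also computed under other scalings. The median over all tested genes was -0.55 with TPM as deposited and moved to -0.03 when each library was centred on its median, to -0.13 after quantile normalization and to 0.07 when the 10 most abundant genes of any library were removed and the rest rescaled. ACT1, ACT4, ACT8, ACT11 and ACT12 were called higher in VN under each of these, as was ACT2, which passed the filter through VN only. ACT3 kept its sign but not its call, with log2 differences of -0.73 (limma adjusted p = 0.0132), -0.32 (0.128) and -0.45 (0.0541) in the same order. Relative to the median of all tested genes, ACT3 stood at -0.70 and ACT12 at -5.92 with TPM as deposited. The share of called genes that were higher in VN moved with the scaling, from 54.9% with TPM as deposited to 46.2%, 48.7% and 47.0%.

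**Figure D4:**
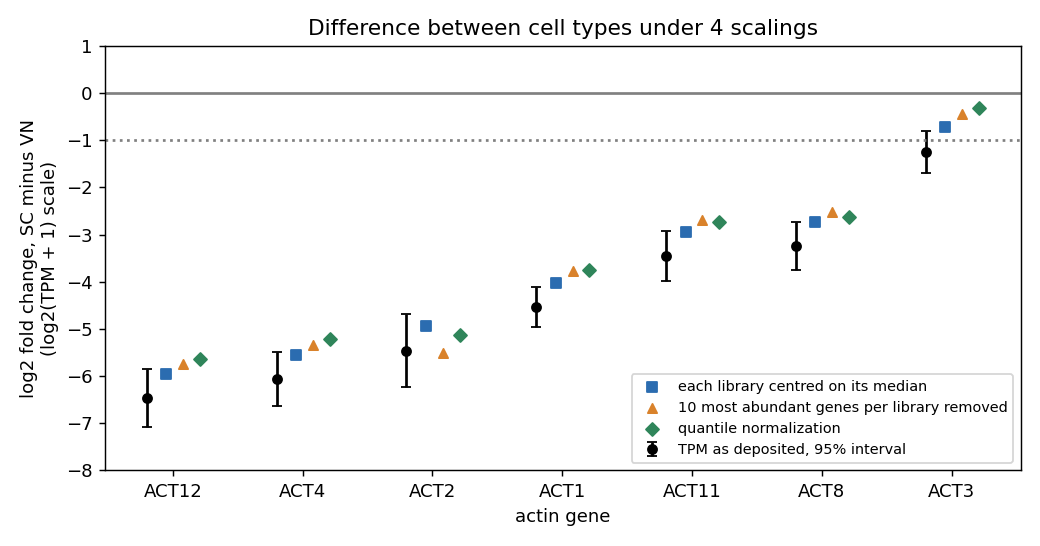
Log2 difference, SC minus VN, of the 7 tested actin genes with TPM as deposited (black, 95% interval from limma) and under 3 other scalings; the dotted line marks the size of 1 needed for a call. ACT3 lies below the line with TPM as deposited and above it under the other 3, while the other 6 genes stay below it.

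The stretch upstream of the annotated start is given for 3 genes whose levels the results turn on: ACT3, the leading gene of SCs, ACT12, the leading gene of VN, and ACT11, whose promoter was used for the sort. They are the 250 bases before the outermost RefSeq start on the plus strand of TAIR10.1, at chr3:19915007-19915256 for ACT3, chr3:3857530-3857779 for ACT11 and chr3:17127961-17128210 for ACT12, and how much of the ACT11 promoter the reporter holds is not given in the sources used here. Capitals mark matches, on either strand, to TATAAA, to AGAAA (a pollen motif known from the tomato LAT52 promoter) or to the MEF2-type CArG box that MIKC* MADS proteins of pollen bind.
ACT3: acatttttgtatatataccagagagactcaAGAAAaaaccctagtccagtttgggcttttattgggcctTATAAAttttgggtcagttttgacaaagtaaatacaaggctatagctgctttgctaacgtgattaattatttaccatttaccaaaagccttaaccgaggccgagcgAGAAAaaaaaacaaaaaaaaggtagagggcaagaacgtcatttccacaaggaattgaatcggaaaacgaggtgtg
ACT11: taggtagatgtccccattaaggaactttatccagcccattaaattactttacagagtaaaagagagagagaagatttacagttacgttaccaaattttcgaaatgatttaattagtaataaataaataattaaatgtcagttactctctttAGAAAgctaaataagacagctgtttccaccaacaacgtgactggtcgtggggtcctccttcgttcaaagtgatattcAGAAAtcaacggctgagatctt
ACT12: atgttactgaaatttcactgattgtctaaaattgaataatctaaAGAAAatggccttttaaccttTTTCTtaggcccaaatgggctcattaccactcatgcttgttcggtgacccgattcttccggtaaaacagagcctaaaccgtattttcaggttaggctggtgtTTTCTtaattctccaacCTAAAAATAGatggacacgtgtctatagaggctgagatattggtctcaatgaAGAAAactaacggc
TATAAA was found in this window of ACT3, ACT4 and ACT8, and in 47.3% of the 27443 windows of protein-coding genes. AGAAA was found in 7 of the 8 genes and in 82.5% of all windows. The CArG box was found in ACT12, at positions -66 to -57 from the start, and in ACT7, where it overlaps an AGAAA match by 2 bases, against 2.15% of all windows. ACT12 and ACT7 are thus the highest gene of VN and the gene listed at 0, and such a match describes the letters only.

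By distance on log2(TPM + 1) over the 6 libraries, the genes most like ACT3 were CK1 (AT1G71697), a choline kinase gene (distance 0.53), AT3G50910 (0.65) and TCTP (AT3G16640, 0.67), which encodes the translationally controlled tumor protein. CK1 was at 103 ± 4.11 TPM in SCs and 272 ± 26.1 TPM in VN (SD over 3 libraries). Those most like ACT12 were AT1G30710 (0.52) and AT1G11770 (0.58), both annotated as berberine-type FAD-binding proteins, and SVL5 (AT5G58170, 0.61). AT1G30710 was at 11.4 ± 1.75 TPM in SCs and 922 ± 65.0 TPM in VN (SD, n = 3 each). The distance compares the level in each library, so these genes have both a similar level and a similar difference.

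The other genes of the actin cytoskeleton were taken from 4 lists of 42 genes in all, of which 23 were tested. Of these 23, 13 were called higher in VN and 6 higher in SCs, beside 35.6% and 29.2% of all tested genes, and their median log2 difference was -2.68. These counts are a description, since ARP2 and ADF4 passed the filter through SCs only and VLN2, VLN3 and FH5 through VN only, and 4 of these 5 were called. Profilins, actin depolymerizing factors and villins each had a called gene in either direction, whereas the tested fimbrins and formins held no gene called higher in SCs. Among proteins that bind actin monomers, the pollen profilin gene PRF5 was at 247, 173 and 238 TPM in VN and at 7.64, 7.57 and 9.25 TPM in SCs (log2 difference -4.58, limma adjusted p = 8.53e-07), and PRF4 was also higher in VN (-4.25). PRF1, a profilin of vegetative tissue, was higher in SCs, at 114, 120.5 and 75.2 TPM against 30.7, 31.4 and 53.3 TPM in VN (log2 difference 1.42, limma adjusted p = 0.00269). Its call was lost without SC replicate 1, SC replicate 2, VN replicate 1 or VN replicate 2 (log2 differences of 1.28 to 1.33). In that list of 6, 5 were tested, 3 were higher in VN and 1 in SCs.

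Among the 11 actin depolymerizing factors, 4 were tested, and 2 were called in each direction. ADF7, a factor of pollen, was the most abundant, at 4579, 3604 and 3141 TPM in VN and at 14.4, 16.2 and 13.2 TPM in SCs (log2 difference -7.91, limma adjusted p = 2.51e-07). ADF10, likewise of pollen, was at 576 ± 78.6 TPM in VN and 12.2 ± 4.79 TPM in SCs (SD, n = 3 each; log2 difference -5.50). In SCs the leading factor was ADF6, at 222, 212 and 205 TPM against 5.12, 7.20 and 0.234 TPM in VN (log2 difference 5.76, limma adjusted p = 6.80e-05). ADF4, named after its values were seen, was at 1.92 to 2.38 TPM in SCs and listed at 0 in VN, and passed the filter through SCs only.

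Of the 13 villins, fimbrins and formins, which bundle or nucleate filaments, 9 were tested, 6 were higher in VN and 1 in SCs. VLN5, a villin of pollen tubes, was at 362, 255 and 222 TPM in VN and at 0.847, 0.803 and 2.83 TPM in SCs (log2 difference -6.88, limma adjusted p = 1.02e-06). FIM5, a fimbrin of pollen, showed a log2 difference of -3.53. VLN1 was the exception, at 113, 144 and 131 TPM in SCs and 14.5, 4.91 and 14.1 TPM in VN (log2 difference 3.54, limma adjusted p = 6.15e-05). In the list of 12 other actin and actin-related genes, 5 were tested and 2 were called in each direction. ARP2, a subunit of the complex that branches filaments, was at 50.3, 44.8 and 56.8 TPM in SCs and at most 0.228 TPM in VN. It passed the filter through its SC libraries only, so it had to differ, and its values are given as a description. ARP3, the other actin-related subunit of that complex, was at 4.22 to 6.60 TPM in SCs and at 1.65, 0.0279 and 0 TPM in VN (log2 difference 2.22, limma adjusted p = 0.00217), and its call was lost without SC replicate 1 or 2. The nuclear actin-related gene ARP5 was higher in VN (-2.68), as was ARP8, named after its values were seen (-1.36, limma adjusted p = 0.00539), whose call was lost in all leave-one-out fits but that without VN replicate 3 (lost values -1.48 to -1.23).

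**Figure D5:**
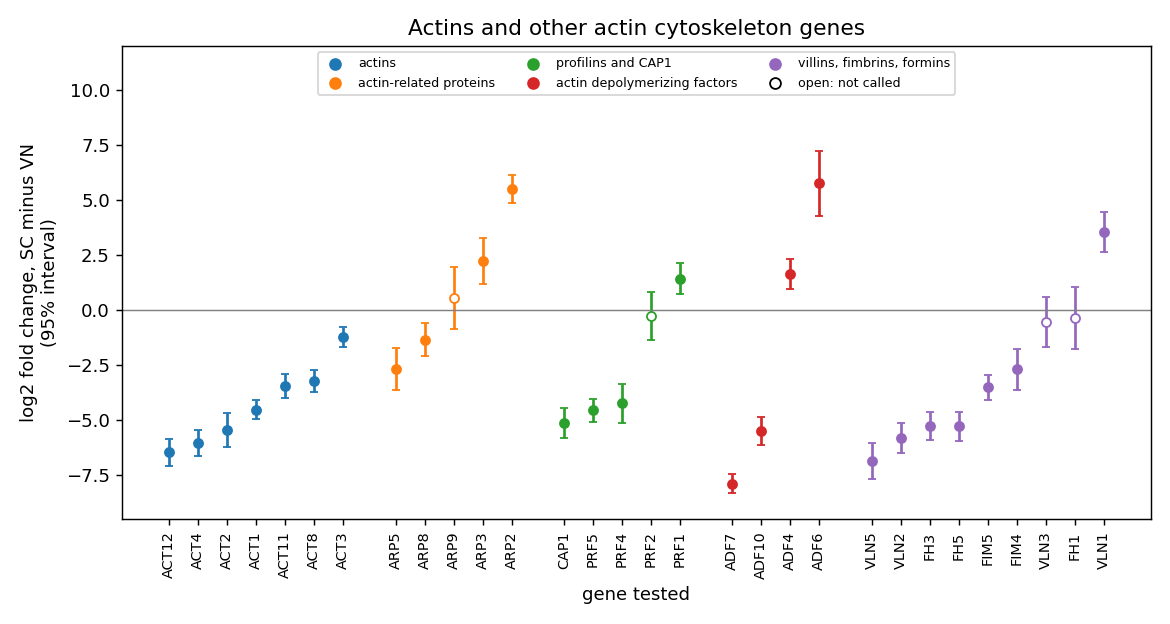
Log2 difference, SC minus VN, with 95% intervals from limma, for the 7 tested actin genes and the 23 tested genes of 4 lists of the actin cytoskeleton; open points were not called. Points above 0 are higher in SCs: ARP2, ARP3, PRF1, ADF4, ADF6 and VLN1 are the 6 that were called.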

How the data were processed

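RNA was sequenced from sorted SCs and VN of mature pollen, 3 libraries each, prepared with Smart-seq2. Per the methods and the submitters' processing notes, the authors trimmed reads with Trim Galore, aligned them with Hisat2 to the TAIR10 genome, built and merged transcript models with Stringtie and estimated abundance with Salmon; the deposited values are TPM per gene, and how transcripts were summed into genes is not given in the sources used here. Rows without a gene identifier (40313) were left out. Salmon shares ambiguous reads among paralogs by estimate, which can move TPM between similar actins.

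Genes were filtered and tested as stated in the report with limma 3.58.1 in R 4.3.3 (linear model on log2(TPM + 1), empirical Bayes with a mean-variance trend), with the thresholds of the study. The study's normalization needs read counts and was not run. Single values per library were compared by exact permutation tests, two-sided. The procedure was tested on simulated data. Sequences and gene positions were taken from the nuclear chromosomes of RefSeq for TAIR10.1, as the deposited table holds no coordinates. Python 3.11.15 was used for these. The identity of the proteins was not run, and coding sequences were compared instead. Per gene, the annotated transcript with the longest coding sequence was taken.

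All 8 members, gene lists and tests were chosen with earlier results of these data known. Of the 4 cytoskeleton lists, the 3 most abundant genes each and those called against the majority of their list were named, and ARP8 and ADF4, in lists with no majority, were named after their values were seen; for the leading actin of each cell type, the 3 genes of most similar pattern were named. Alternatives were a pseudocount of 0.1, no filter, a filter of 3 libraries, 3 scalings, no trend, the replicate number as a block, each library left out, and sums over similar actin pairs. The study states that sorting was done in batches, but the labels do not say which, so batches could not be compared.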

Additional observations from a re-analysis of the deposited data

How the results depend on the processing

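All 7 tested actin genes were called without each library in turn, with a pseudocount of 0.1, without the filter, with the filter of 3 libraries, without the trend and with the replicate number as a block. Under the 3 scalings 6 were called and ACT3 was lost. The calls of ACT2 are no support wherever a filter was used, since it passed through its VN libraries only. Summed over similar pairs, 4 of 4 tested units were called, since 3 pairs replace 6 genes and ACT7 stays untested. The number of all genes called was 7105, from 5845 without the filter to 7351 after quantile normalization, and 6101 to 7411 in the 6 leave-one-out fits. Left-out libraries moved the summed actin difference from -2556 to -2298 TPM and the difference in the vegetative-class share from -1.44 to -0.02 percentage points, in no case past a test, since 2 libraries against 3 allow no p under 0.2. The replicate number as a block gave 6927 called genes and changed no call among the actin genes; of the named genes it lost the call of ARP8 (adjusted p = 0.0111, limma). Same-numbered libraries did not deviate together (correlations across genes of 0.0085, -0.035 and -0.019), and no SC library correlated best with the VN library of its number, so the numbers were not taken as pairs. ARP3 and ARP8 were also lost with a pseudocount of 0.1 and without the filter, ADF4 without the filter, and ARP8 under the 3 scalings. The table holds no depth per library, so the counting error of levels under about 1 TPM, such as ACT2 in SCs, cannot be stated.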

Other observations

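The annotated actin loci outside the 8 genes were low and uneven. ACT9 (AT2G42090) was at 7.91 TPM in VN replicate 2, at 0.118 TPM in SC replicate 1 and listed at 0 in the other 4 libraries. Its neighbour in the gene numbering, ACT5 (AT2G42100), annotated as an actin-like ATPase, was at 3.53 TPM in the same VN replicate 2, at 0.27 TPM in VN replicate 1 and listed at 0 elsewhere. AT2G42170, another actin family gene, was at 0.468 TPM in SC replicate 1 and listed at 0 in the other libraries. None of these 3 passed the filter, so no difference was tested. ARP7, a nuclear actin-related gene, was listed at 0 in all 6 libraries, as ACT7 was.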
